A study of Mus musculus with 12 samples.

Results

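Nitric oxide and arginine metabolism was followed through 7 genes in mouse peritoneal macrophages: Nos2, Slc7a2, Ass1, Asl, Gch1, Ddah2 and Odc1. The members were taken by gene symbol from count tables of 16920 genes, and all 7 were found and tested. Macrophages use the amino acid arginine in several ways. The inducible nitric oxide synthase encoded by Nos2 oxidises arginine to citrulline and nitric oxide, a microbicidal gas, and needs the cofactor tetrahydrobiopterin. Arginine also yields ornithine, from which polyamines and proline are made. High Nos2 is a textbook sign of macrophages activated by bacterial products. Nitric oxide itself, urea, polyamines and protein levels were not measured here.

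The cells came from wild-type (WT) mice or from Ythdf1-/- mice (KO), bred to lack a reader of the RNA mark m6A throughout the body, both on a C57BL/6 background and aged 6 to 10 weeks. The series record names 6% starch broth, given into the peritoneum 3 days earlier, as the eliciting agent, whereas the methods name thioglycollate. After a night in culture, cells of each genotype received PBS or 1 µg/mL of the bacterial cell wall component lipopolysaccharide (LPS) for 6 h, and the labels call the 3 libraries in each of these 4 groups independent samples. How many mice stood behind a library was not stated.

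Levels are given as CPM, counts scaled to the size and composition of a library, and differences as log2 fold changes with their standard error (SE). Library totals lay between 21546274 and 22017005 counts, and 3 counts, taken as the floor, equalled 0.105 to 0.187 CPM. All 10 macrophage markers were detected, with summed levels of 17980 to 21300 CPM. The 6 skeletal muscle markers summed to 17.8 to 35.6 CPM in the WT libraries but to 0.429 to 0.684 CPM in the KO-labelled LPS libraries. Among the KO-labelled PBS libraries, replicates 1 and 2 held 16.1 and 20.4 CPM of them and replicate 3 only 0.354. The 6 fibroblast markers summed to 75.1 to 132 CPM in WT and to 32.9 to 69.5 CPM in KO-labelled libraries, with Lum at or under the floor in every group. Ythdf1 mRNA was not lower under the KO label, at 43.5 ± 1.54 CPM (SD, n = 3) in WT PBS, 57.2 ± 1.53 in KO PBS, 202 ± 9.37 in WT LPS and 198 ± 6.94 in KO LPS libraries. With PBS it passed as higher under the KO label (log2 fold change 0.40, adjusted p = 0.000133 by edgeR). Genotype comparisons here therefore rest on the labels. The paper shows tail genotyping of the knockout line and YTHDF1 immunoblots of chimeric mice. Replicate 1 of WT LPS stood apart from its group. Where leaving out 1 library changed the call of a member, the value without that library is given. Other values moved too, and only some of those are given.

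Promoter sequences of 4 of the 7 members (Ass1, Gch1, Ddah2 and Odc1) were found in the RefSeq table of build GRCm38.p6. The stretches upstream of 3 annotated starts are shown, those of Gch1 and Ass1 because both genes rose with LPS under each label, and that of Ddah2 because it did not pass in any of the 5 comparisons with libraries scaled by TMM, a trimmed mean of log ratios. They lie at chr14:47189414-47189663 (minus strand), chr2:31470020-31470206 (plus strand) and chr17:35058785-35059034 (plus strand), and capitals mark motif matches.
Gch1: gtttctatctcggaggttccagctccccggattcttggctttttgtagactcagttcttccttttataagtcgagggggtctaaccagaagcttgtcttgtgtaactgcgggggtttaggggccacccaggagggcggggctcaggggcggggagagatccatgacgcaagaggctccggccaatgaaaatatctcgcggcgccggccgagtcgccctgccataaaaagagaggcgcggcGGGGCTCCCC
Ass1: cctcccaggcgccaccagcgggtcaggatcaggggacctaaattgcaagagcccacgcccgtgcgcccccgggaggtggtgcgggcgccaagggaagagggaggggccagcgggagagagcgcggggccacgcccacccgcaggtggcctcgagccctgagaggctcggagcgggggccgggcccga
Ddah2: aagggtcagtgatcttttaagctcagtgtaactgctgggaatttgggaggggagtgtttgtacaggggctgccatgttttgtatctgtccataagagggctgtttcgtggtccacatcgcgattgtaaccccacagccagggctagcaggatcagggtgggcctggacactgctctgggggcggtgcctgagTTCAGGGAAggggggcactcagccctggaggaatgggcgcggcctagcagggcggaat

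The capitals in Gch1 match the NF-kB motif on both strands, at positions -10 to -1 counted from the annotated start. A match to that motif was held by 8.46% of 32851 promoter windows of 300 bases. The capitals in Ddah2, at -58 to -50, match the GAS motif TTCNNNGAA, held by 8.3% of windows. Ass1 held the E-box CACGTG, found in 7.15% of windows, nearer to its start than the stretch shown. The ISRE (3.44% of windows), AP-1 (TGANTCA, 7.81%), CRE (TGACGTCA, 1.79%) and C/EBP (TTGCGCAA, 0.18%) letters were in none of the 4 windows. Odc1, which also rose with LPS under each label but is not shown, held none of the motifs. Both strands were read, and a match is a description, not evidence of binding.

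The first comparison asked how LPS altered these genes in WT macrophages. Of the 7 members, 5 rose and 1 fell, beside 76.7% of all 12064 genes tested that passed the same threshold, 36.5% higher and 40.2% lower. The PBS and LPS libraries were free of overlap in 6 members, beside 78.2% of all genes, and 4 members passed with a difference of more than 1 log2 unit, beside 36.4% of all genes. With so many genes passing, the count of members is near the background. The median log2 fold change of the 7 was 3.58, against -0.05 over all genes tested, a description only, since the members were chosen with earlier results known. Nos2, the arginine transporter gene Slc7a2, Gch1 and Ass1 rose the most, Odc1 rose less, Asl fell, and Ddah2 did not pass. Such values describe the mix of RNA in the dish, in which fewer cells of a type and less RNA per cell cannot be told apart.

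**Figure D1:**
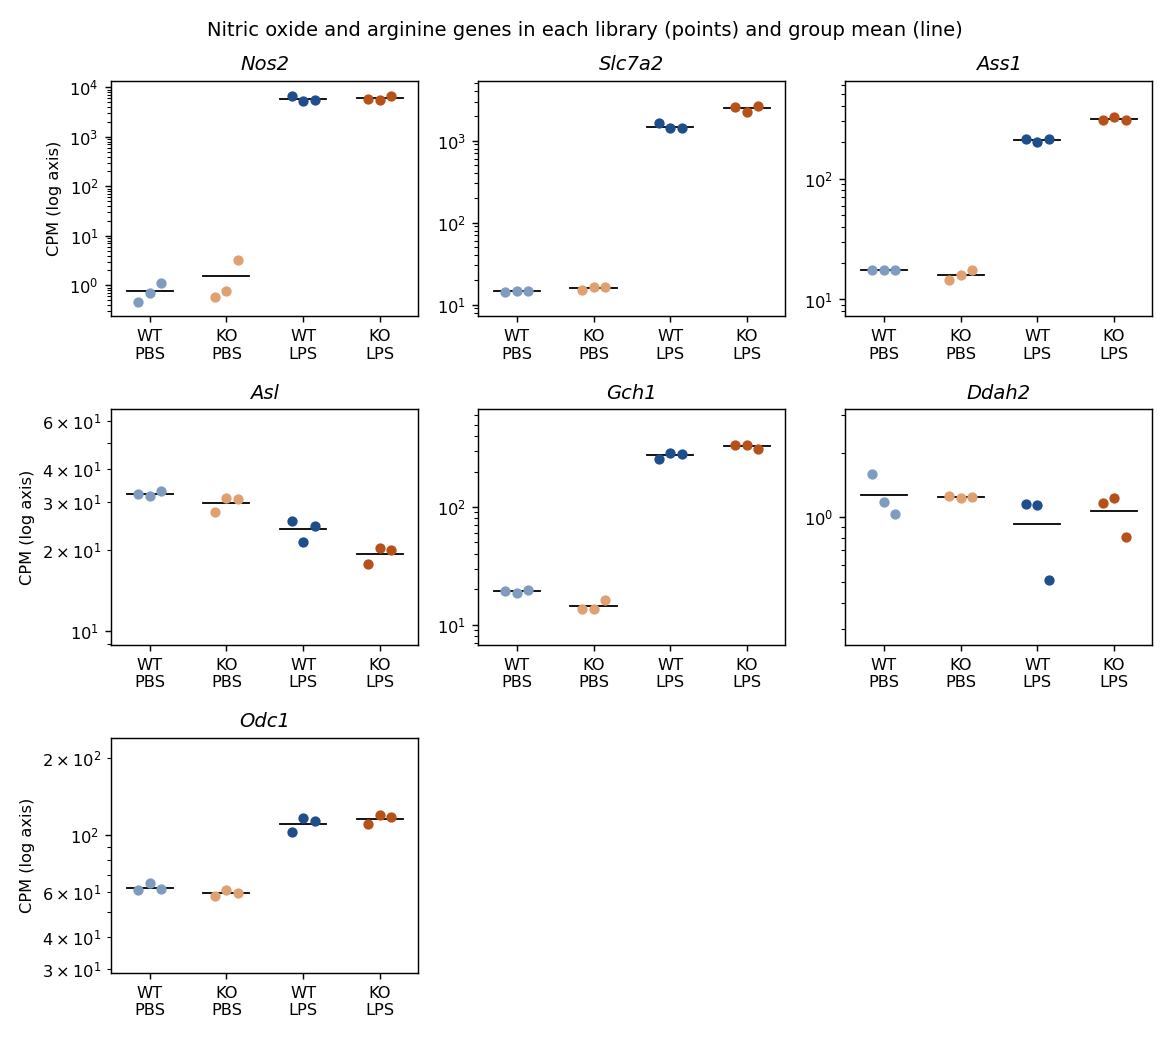
CPM (log axis, a separate range in each panel) of the 7 members in each of the 12 libraries, by group; points are libraries and lines are the means of 3. Nos2 goes from at most 3.26 CPM in every PBS library to at least 5340 in every LPS library, whereas Asl stays between 17.8 and 33.1 CPM throughout.

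Nos2 (gene 18126, chr11:78920787-78960226, plus strand, GRCm38.p6) was close to silent without LPS. The 3 WT PBS libraries held 0.470, 0.715 and 1.11 CPM, which is 13, 20 and 31 counts. With LPS the WT libraries held 6689, 5340 and 5517 CPM, from 93784 to 115666 counts. All 3 WT LPS libraries thus lay far above all 3 WT PBS libraries, and Nos2 went from rank 11330 to 10554 among genes by count to rank 14 to 20, taking 0.431% to 0.525% of all counts. The log2 fold change was 12.89 ± 0.451 (SE, adjusted p = 1.07e-09), which is 7585-fold, with a 95% interval on the log2 scale from 11.9 to 13.9.

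Arginine reaches the enzyme from outside the cell and by resynthesis from citrulline. Slc7a2 (gene 11988, chr8:40862341-40922070, plus strand) encodes CAT2, a transporter that carries arginine into activated macrophages. It lay at 14.3, 14.7 and 14.8 CPM in the WT PBS libraries and at 1638, 1415 and 1409 with LPS. Its replicates were close together and the rise was 102-fold (log2 fold change 6.67 ± 0.0957, adjusted p = 1.5e-18). Its exons overlap those of Gm26584 on the opposite strand, and its counts carried fractions in all 12 libraries. Strand was not stated for the counting, so reads from the overlap cannot be told apart.

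Ass1 and Asl encode the argininosuccinate synthase and lyase, which together turn citrulline back into arginine, and they moved in opposite directions. Ass1 (gene 11898, chr2:31470270-31520670, plus strand) lay at 17.6, 17.5 and 17.7 CPM in WT PBS and at 215, 201 and 215 CPM in WT LPS libraries, a log2 fold change of 3.58 ± 0.0698 (adjusted p = 3.48e-17). Asl (gene 109900, chr5:130011258-130024381, minus strand) lay at 32.2, 31.8 and 33.1 CPM and then at 25.6, 21.5 and 24.6 CPM, so that every LPS library was below every PBS library. Asl fell by 0.44 ± 0.0784 on the log2 scale (adjusted p = 8.31e-05), or by 0.75 when libraries were scaled by their upper quartiles and by 1.10 by their totals alone. Per kilobase of the longest annotated transcript, Ass1 and Asl were near each other with PBS, at mean levels of 10.4 and 13.4 CPM per kilobase. With LPS, Ass1 stood at 124 and Asl at 9.90 CPM per kilobase.

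Gch1 (gene 14528, chr14:47153895-47189413, minus strand) encodes GTP cyclohydrolase 1, the first and rate-limiting enzyme of tetrahydrobiopterin synthesis, and carries the NF-kB letters shown above. It lay at 19.3, 18.7 and 19.6 CPM in WT PBS and at 258, 288 and 281 CPM in WT LPS libraries. The groups were far apart, with a log2 fold change of 3.84 ± 0.0771 (adjusted p = 4.9e-17). Ddah2 (gene 51793, chr17:35059035-35062099, plus strand) belongs to the family of dimethylarginine dimethylaminohydrolases, named for the breakdown of methylated arginines that inhibit nitric oxide synthases. Its level was low, at 1.59, 1.18 and 1.04 CPM with PBS and 1.16, 1.14 and 0.508 CPM with LPS, from 9 to 44 counts, and the groups overlapped. The difference of -0.44 ± 0.285 (adjusted p = 0.167) was within the spread between replicates, and a change of this size was not detectable at this depth. It was -0.14 without WT LPS replicate 3 and -0.62 without WT LPS replicate 1. Ddah2 passed as lower when libraries were scaled by their upper quartiles (-0.75) or by their totals alone (-1.10).

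Odc1 (gene 18263, chr12:17544808-17551502, plus strand) encodes ornithine decarboxylase, which takes ornithine into the polyamine pathway. It lay at 61.0, 64.9 and 61.3 CPM with PBS and at 103, 116 and 113 CPM with LPS in WT. Every LPS library lay above every PBS library, and the log2 fold change was 0.83 ± 0.0617 (adjusted p = 2.06e-09). The size depended on the scaling, at 0.52 with upper quartiles and 0.17 with library totals alone, and raw counts of 1686 to 1814 and of 1777 to 2040 overlapped. These scalings moved the median of all genes by -0.31 and -0.66.

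**Figure D2:**
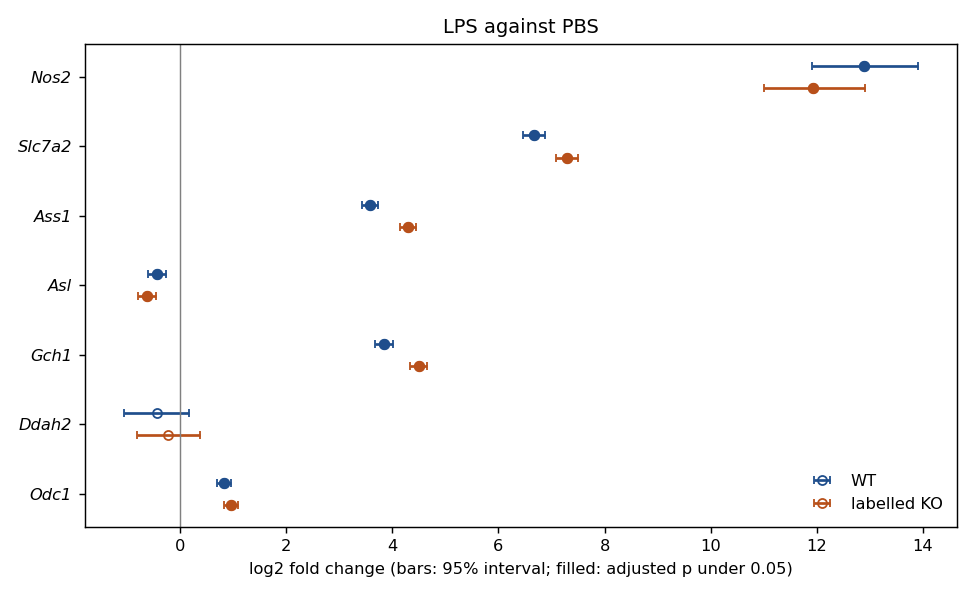
Log2 fold change, LPS against PBS, of the 7 members in WT (blue) and KO-labelled (orange) libraries; bars are 95% intervals from the fit, and filled points have an adjusted p under 0.05. Nos2 and Slc7a2 lie far to the right under each label, and Asl lies to the left.

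The same comparison within the KO-labelled libraries gave 5 members higher and 1 lower, beside 79.9% of all genes, 38.8% higher and 41.1% lower. Groups were free of overlap in all 7 members, beside 81.3% of all genes, and 4 members differed by more than 1 log2 unit, beside 41.7%. The median of the 7 was 4.29, against -0.04 over all genes. The 5 that rose were Nos2, Slc7a2, Ass1, Gch1 and Odc1, as in WT, and the member that fell was Asl. Ddah2 did not pass.

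KO-labelled PBS libraries held 0.595, 0.772 and 3.26 CPM of Nos2, on 17, 22 and 92 counts. Replicate 3, the PBS library of that label without the muscle signal, stood above the other two, and whether that is linked was not tested. With LPS, Nos2 lay at 5890, 5548 and 6557 CPM, a log2 fold change of 11.92 ± 0.424 (adjusted p = 1.05e-09), or 13.08 without KO PBS replicate 3. That single library therefore moved the fold by more than any other, while the LPS levels were within the range of the WT LPS libraries.

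Slc7a2 went from 14.9, 16.2 and 16.4 CPM to 2566, 2235 and 2667 CPM under the KO label (log2 fold change 7.30 ± 0.0979, adjusted p = 5.13e-19). Ass1 went from 14.5, 15.8 and 17.4 CPM to 304, 322 and 306 CPM (4.29 ± 0.0716, adjusted p = 4.61e-18). Gch1 went from 13.5, 13.8 and 16.3 CPM to 335, 336 and 311 CPM (4.49 ± 0.0797, adjusted p = 8.85e-18). For each of these transport, resynthesis and cofactor genes the PBS and LPS libraries were an order of magnitude or more apart. Asl went from 27.6, 31.2 and 31.0 CPM to 17.8, 20.4 and 19.96 CPM and fell by 0.63 ± 0.081 on the log2 scale (adjusted p = 2.01e-06), or by 0.98 with upper quartiles and 1.43 with library totals alone.

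Odc1 went from 57.6, 60.9 and 59.6 CPM to 110, 120 and 118 CPM (0.97 ± 0.0619, adjusted p = 2.3e-10), or by 0.16 with library totals alone. Ddah2 lay at 1.26, 1.23 and 1.24 CPM with PBS and at 1.17, 1.22 and 0.808 with LPS, a difference of -0.22 ± 0.282 (adjusted p = 0.486), although it passed as lower with library totals (-1.01) and was -0.055 without KO LPS replicate 3.

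To ask whether resting cells differed between the labels, KO PBS libraries were compared with WT PBS libraries. Of the members, 0 were higher and 1 was lower (Gch1) under the KO label, beside 25.3% of all genes that passed, 12.3% higher and 13% lower, and 0 members against 3.31% of all genes also differed by more than 1 log2 unit. The median of the 7 was -0.07, against 0.00 over all genes. Gch1 was lower, with a log2 fold change of -0.40 ± 0.0784 (adjusted p = 0.00139), with 13.5 to 16.3 CPM in KO-labelled libraries against 18.7 to 19.6 in WT. Groups were free of overlap in 5 members, Gch1 among them, beside 48.1% of all genes.

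Nos2 differed by 1.00 ± 0.657 (adjusted p = 0.317), with a 95% interval from -0.48 to 2.48. This value came from KO PBS replicate 3, since it was -0.14 (adjusted p = 0.827) without that library. Slc7a2 (0.12), Ass1 (-0.15), Asl (-0.11), Ddah2 (-0.03) and Odc1 (-0.07) did not pass, with adjusted p from 0.153 to 0.951. Ddah2 ran from -0.16 without WT PBS replicate 3 to 0.19 without WT PBS replicate 1. Fibroblast marker levels were lower in every KO-labelled PBS library than in any WT PBS library. Within each of the next 4 marker lists, genes differed in direction or in whether they moved. Of the 5 resident peritoneal macrophage markers, which summed to 11.6 to 12.1 CPM under the KO label and 13.3 to 14.8 in WT, Icam2 was higher under the KO label (means of 4.73 and 3.35 CPM) and Gata6 lower (1.12 and 2.75). Of the 4 monocyte-derived macrophage markers, which summed to 795 to 884 and 949 to 1140 CPM, Fn1 was lower (704 and 949) but Itga4 (102 and 75.6) and Ly6c2 (10.2 and 8.22) were higher. The endothelial sum of 20.3 to 21.7 CPM against at most 14.1 was nearly all Kdr (20.2 and 11.8), whereas Cdh5 was lower (0.457 and 0.753) and Tek was at 0 in every PBS library. The mesothelial sum of 4.85 to 7.21 against 9.08 to 9.72 CPM was lower mostly through Wt1 (0.996 and 3.05), with Msln at 1.01 and 1.00. Mast cell sums (0.175 to 0.456 under the KO label, 0.644 to 0.904 in WT) and T cell sums (1.88 to 2.14 and 2.28 to 2.93) were also lower under the KO label. Macrophage sums were higher (19210 to 19400 and 17980 to 18610). The part of these cells in these differences was not tested.

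With LPS, the KO-labelled libraries had 3 members higher (Slc7a2, Ass1 and Gch1) and 1 lower (Asl) than WT, beside 41.4% of all genes, 22.1% higher and 19.3% lower. In 0 members did the difference also exceed 1 log2 unit, beside 4.72% of all genes. The median of the 7 was 0.19, against 0.00 over all genes. Nos2 itself did not pass. Its 3 KO-labelled libraries held 5548 to 6557 CPM and its 3 WT libraries 5340 to 6689 CPM, with means of 5998 ± 513 and 5849 ± 733 (SD). The difference was 0.04 ± 0.248 (adjusted p = 0.922), and its 95% interval, from -0.52 to 0.60, leaves room for a difference of about 0.5 log2 units either way. Its sign turned under 5 alternatives, among them upper-quartile scaling (-0.03).

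Genes that feed the enzyme with arginine were higher or lower by member. Slc7a2 stood at 2235 to 2667 CPM under the KO label and at 1409 to 1638 in WT, a difference of 0.74 ± 0.073 (adjusted p = 1.12e-06). Ass1 stood at 304 to 322 CPM against 201 to 215 (0.56 ± 0.0608, adjusted p = 2.83e-06). In both genes, every KO-labelled LPS library was well above every WT LPS library. Groups were free of overlap in 4 members, beside 45.6% of all genes. Asl went the other way, at 17.8 to 20.4 CPM against 21.5 to 25.6 (-0.30 ± 0.0848, adjusted p = 0.00936), and it lost its call without KO LPS replicate 1 (-0.24, adjusted p = 0.0554).

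Gch1 was at 311 to 336 CPM in the KO LPS and 258 to 288 CPM in the WT LPS libraries. Its difference was 0.25 ± 0.0666 (adjusted p = 0.00704), and the call was lost with upper-quartile scaling (0.18, adjusted p = 0.0525) and with library totals alone (0.16, adjusted p = 0.0794).

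Ddah2 (0.19, adjusted p = 0.661) and Odc1 (0.07, adjusted p = 0.416) did not pass. The sign of the Ddah2 value rested on single libraries, at -0.10 without WT LPS replicate 3 and 0.38 without WT LPS replicate 1, and Odc1 ran from 0.016 to 0.10 with 1 library left out. In these LPS libraries, muscle markers summed to 30.0 to 35.6 CPM in WT and to under 1 CPM under the KO label, and fibroblast markers to 119 to 132 CPM against 57.0 to 69.5. The markers of resident peritoneal macrophages summed to 23.4 to 24.6 CPM in WT and 13.4 to 15.7 under the KO label, and those of monocyte-derived macrophages to 1513 to 2494 and 1370 to 1773 CPM, which overlap. Single markers moved in different directions. Mean levels in WT and KO-labelled libraries were 233 and 98.3 CPM for Mertk, 6.64 and 1.44 for Timd4, and 29.3 and 91.2 for Ly6c2. In the macrophage list with Mertk, Csf1r (425 and 295) and Cd68 (3696 and 3201) were also lower under the KO label. Cd14 (460 and 735) and Ptprc (448 and 757) were higher. Beside Ly6c2, Fn1 (1526 and 1089), Itga4 (343 and 386) and Ccr2 (2.22 and 2.38) overlapped between the labels. The markers named were chosen after their values were seen. Mesothelial markers summed to 9.19 to 11.2 CPM in WT and 6.08 to 9.02 under the KO label, with Wt1 at means of 2.84 and 1.03 and Msln at 1.26 and 1.52. Mast cell markers summed to 1.02 to 1.42 and 2.82 to 3.56 CPM, nearly all Kit, with Cpa3 and Mcpt4 at 0 in these libraries. Eosinophil markers summed to 2.02 to 2.37 CPM in WT and 0.933 to 1.66 under the KO label, nearly all Siglecf. What part these had in the differences was not tested.

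**Figure D3:**
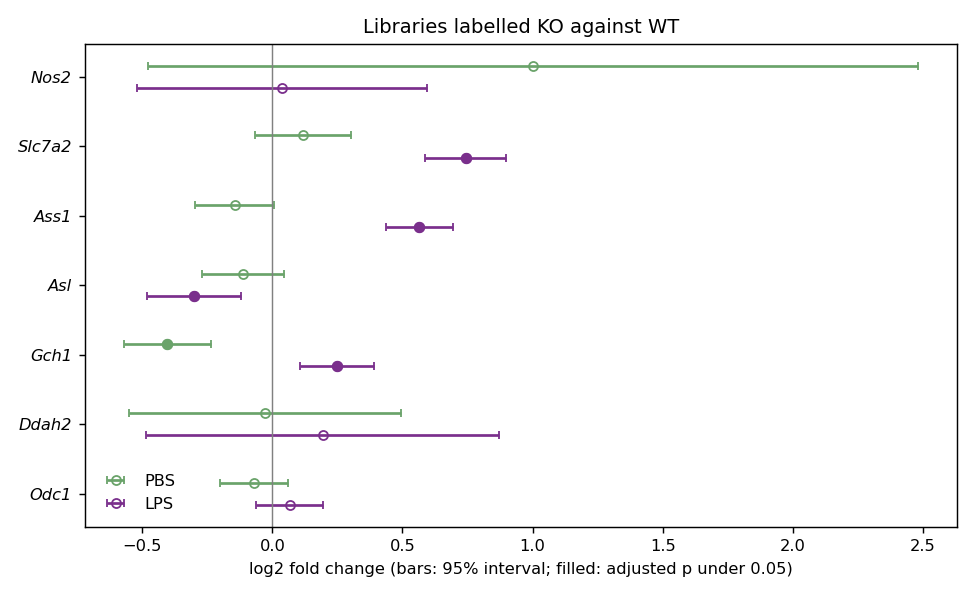
Log2 fold change, KO-labelled against WT libraries, of the 7 members with PBS (green) and LPS (purple); bars are 95% intervals from the fit, and filled points have an adjusted p under 0.05. Gch1 is left of 0 with PBS and right of it with LPS, Slc7a2 and Ass1 are to the right with LPS, and Nos2 with PBS has the widest bar.

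Whether the response to LPS differed between the labels was tested by the interaction of label with treatment, which 18% of all genes passed, 9.78% with a more positive and 8.26% with a more negative response under the KO label. It was passed by 3 members, Slc7a2, Ass1 and Gch1, all with a larger rise under the KO label. The response of Slc7a2 was larger by 0.63 ± 0.113 log2 units (adjusted p = 0.00127), that of Ass1 by 0.71 ± 0.0935 (adjusted p = 8.85e-05) and that of Gch1 by 0.65 ± 0.103 (adjusted p = 0.000416). For Gch1, this combined a lower level with PBS and a higher level with LPS. All 3 passed under every alternative run except the further threshold of 1 log2 unit, which 2.69% of all genes passed in this test.

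The response of Nos2 differed by -0.96 ± 0.704 (adjusted p = 0.406), with a 95% interval from -2.55 to 0.62, and by 0.17 without KO PBS replicate 3. Asl (-0.19, adjusted p = 0.283), Odc1 (0.14, adjusted p = 0.31) and Ddah2 (0.22, adjusted p = 0.773) did not pass, although Asl did with library totals alone (-0.33, adjusted p = 0.0443). Ddah2 was at -0.075 without WT LPS replicate 3 and 0.40 without WT LPS replicate 1.

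The pathway around the members was read from 65 further genes, of which 50 had enough counts to be tested. The other synthases, Nos1 and Nos3, were among the 15 not tested, as were the soluble guanylate cyclase genes Gucy1a1, Gucy1a2 and Gucy1b1, whose product senses nitric oxide, and Ddah1. In WT, 17 of the 50 rose with LPS and 26 fell (86%), beside 76.7% of all genes, 36.5% higher and 40.2% lower, with a median of -0.27. In the KO-labelled libraries 16 rose and 27 fell (86%), beside 79.9% of all genes, 38.8% higher and 41.1% lower, with a median of -0.47. The balance moved with scaling, since library totals alone gave 7 higher and 37 lower in WT and 5 higher and 39 lower under the KO label.

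Of 5 further tetrahydrobiopterin genes tested, 0 passed as higher with LPS under either label, beside 36.5% and 38.8% of all genes in WT and KO. Of the same 5, 3 were lower in WT, beside 40.2% of all genes, and 5 under the KO label, beside 41.1%. Spr, the sepiapterin reductase that completes the cofactor, fell by 0.78 in WT and by 1.20 under the KO label on the log2 scale, and Qdpr, which recycles it, fell by 0.25 and by 0.54. Library totals alone made these falls larger, at -1.44 in WT for Spr and -0.92 in WT and -1.34 under the KO label for Qdpr. All 6 tested genes of the urea cycle, ornithine and proline group fell under each label, beside the same 40.2% and 41.1%, among them Oat, which turns ornithine towards proline (-0.82 and -0.78), and Aldh18a1, the enzyme that makes the proline and ornithine precursor from glutamate (-1.76 and -1.58). With library totals alone Oat stood at -1.49 and -1.59 and Aldh18a1 at -2.42 and -2.38.

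Polyamine genes went in different directions, with 6 higher and 6 lower of 13 tested in WT, beside 36.5% and 40.2% of all genes, and 5 and 5 under the KO label, beside 38.8% and 41.1%. The spermine oxidase gene Smox rose by 1.16 in WT and by 2.08 under the KO label, and Sat1, whose product acetylates polyamines for export, differed by 0.99 in WT and by 0.64 under the KO label. Paox, which oxidises acetylated polyamines, fell by 2.55 in WT and by 3.55 under the KO label, and the polyamine exporter of the lysosome Atp13a2 fell by 1.76 and by 2.28. Srm and Amd1, which act after Odc1 in making spermidine, fell by 1.02 and 1.64 in WT. Sms, the spermine synthase gene, differed by 0.73 in WT and by 0.71 under the KO label, and its calls depended on the scaling. With library totals alone Sms was at 0.066 and -0.092 (adjusted p = 0.592 and 0.452), Sat1 at 0.33 and -0.16 (adjusted p = 0.0023 and 0.0925), Smox at 0.49 and 1.28, and Srm in WT at -1.68. Raw counts of Sat1 under the KO label were 6182 to 6922 with PBS and 5440 to 6162 with LPS. Such scaling moved the median of all genes by -0.66 in WT and -0.80 under the KO label. Spr, Qdpr with LPS, Oat, Srm, Amd1 and Sms with LPS, Sat1 under the KO label and Slc3a2 were chosen after their values were seen.

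Among the remaining named genes of the WT comparison, Pde5a, which breaks down the second messenger of nitric oxide signalling, rose by 1.63 and Carm1, an arginine methyltransferase, by 1.03. Pycr3, of proline synthesis, fell by 1.65. Under the KO label Pde5a rose by 1.57 and the thioredoxin reductase gene Txnrd1 by 1.27, and the carbonyl reductase gene Cbr1 fell by 2.43. Slc3a2, the heavy chain shared by several amino acid transporters, rose by 0.87 in WT and by 1.15 under the KO label. With library totals alone these rises were smaller, at 0.96 in WT and 0.77 under the KO label for Pde5a, 0.37 for Carm1, 0.47 for Txnrd1, and 0.21 and 0.34 for Slc3a2.

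**Figure D4:**
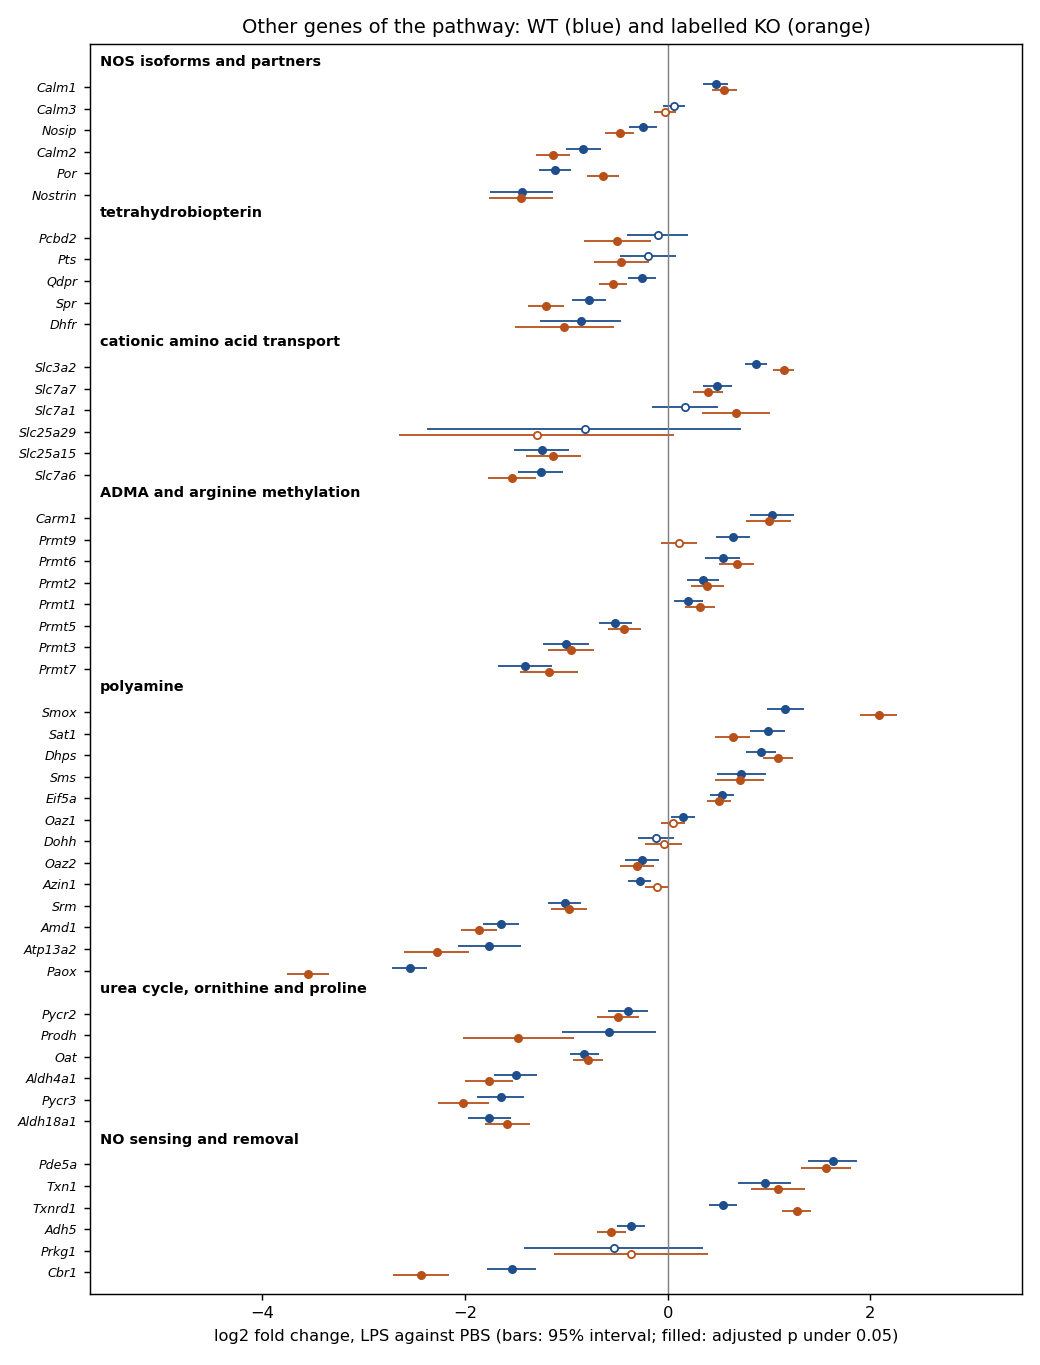
Log2 fold change, LPS against PBS, of the tested pathway genes other than the members, by group, in WT (blue) and KO-labelled (orange) libraries; bars are 95% intervals and filled points have an adjusted p under 0.05. The urea cycle, ornithine and proline genes all lie to the left, Pde5a in WT and Smox under the KO label are the farthest right, and Paox is the farthest left under each label.

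Between the labels, 5 of the 50 were higher and 14 lower with PBS (38%, median -0.10), beside 25.3% of all genes. Without KO PBS replicate 1, 6 passed in place of 19, and without WT PBS replicates 1 and 3 or KO PBS replicates 2 and 3 there were 9, 8, 10 and 12. With LPS, 5 were higher and 17 lower (44%, median -0.13), beside 41.4% of all genes. With PBS the named genes were Pts (0.37), Sat1 (0.31) and Calm2 (0.27), which were higher, and Prmt7 (-0.49), Srm (-0.48) and the arginine transporter gene Slc7a1 (-0.45), which were lower. The calls of Pts, Slc7a1, Calm2 and Sat1 were each lost under at least 1 alternative. That of Slc7a1 (adjusted p = 0.0455) was the weakest, lost whichever PBS library was left out and with RLE scaling or no count filter. That of Sat1 was lost only without WT PBS replicate 3. With LPS, Txnrd1 (0.93), Smox (0.68) and Por (0.37) were higher, and Atp13a2 (-0.75), Qdpr (-0.61) and Aldh4a1 (-0.57) were lower. Atp13a2 ran from -0.88 without WT LPS replicate 2 to -0.53 without WT LPS replicate 1. The interaction was passed by 10 of the 50 (20%), beside 18% of all genes, 4 with a more positive and 6 with a more negative response under the KO label. With 1 library left out, 7 to 12 of the pathway genes passed. Of the 5 tetrahydrobiopterin genes, 0 were higher and 4 lower under the KO label with LPS, beside 22.1% and 19.3% of all genes, whereas Gch1 was higher. In the interaction, Spr (-0.42, adjusted p = 0.0215) and Qdpr (-0.29, adjusted p = 0.0397) passed with a more negative response, opposite to Gch1. Neither call was firm. That of Spr was lost when replicate 2 of WT PBS (adjusted p = 0.0544), 3 of WT LPS (0.0551) or 1 of KO LPS (0.066) was left out. That of Qdpr was lost with no filter on low counts (0.0573) and when replicate 2 or 3 of WT PBS or of KO PBS, 3 of WT LPS, or 1 or 3 of KO LPS was left out (0.0508 to 0.108). Smox (0.93 ± 0.12, adjusted p = 7.44e-05) and Paox (-1.01 ± 0.148, adjusted p = 0.000231) went farthest each way. Smox went from 12.6 to 28.2 CPM on average in WT and from 10.7 to 45.1 under the KO label, and Paox from 21.7 to 3.71 and from 19.1 to 1.62.

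The genes whose log2 CPM ran most like that of Nos2 over the 12 libraries are given as a description. They were the chemokine gene Cxcl10 (r = 0.9986), Gm12185 (0.9984) and the endothelin gene Edn1 (0.9981). PBS and LPS libraries form separate clusters in Nos2, and 2080 of 12064 genes had an r above 0.95 with it, so the measure says little beyond the response to LPS.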

How the data were processed

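The authors deposited 12 tables of expected counts (estimated counts per gene, not scaled between libraries), 1 per library, from single-end reads of 50 bases. The submitters' processing notes name Bowtie2, RSEM 1.3.1 and GRCm38.p6, whereas the methods name STAR and HTSeq. Decimals were present in 24.6% to 26.9% of a library's values, which were rounded here.

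Counts were analysed in R 4.3.3 with edgeR 4.0.16. The filter filterByExpr kept 12064 genes, and libraries were scaled by TMM (a trimmed mean of log ratios), with factors of 1.26 to 1.31 in PBS and 0.744 to 0.808 in LPS libraries. The 12 libraries entered a single robust quasi-likelihood model in which each group had its mean. P-values were two-sided and adjusted by Benjamini-Hochberg across the whole table, and 0.05 was the threshold. The typical biological coefficient of variation was 6.99%. Gene numbers were matched to RefSeq (99.3% found) and lengths are those of the longest GENCODE transcript. Tested on simulated data, 99% of 200 genes changed by 1 log2 unit were recovered for KO against WT under LPS and 94% for the interaction, over 11840 genes. The changed genes were drawn from those above a count cut and raised in the KO LPS group only, and all else had equal means. The simulation thus held no LPS response and no library standing apart. It cannot say how well smaller differences, or those of genes with few counts, are found. Intervals and floors cover counting error or the spread between libraries only, since no molecular identifiers were used.

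The members, the pathway list and the marker lists were chosen with earlier results of these data known. Named pathway genes changed most in each direction (4 for LPS in WT, 3 otherwise), given an adjusted p past the threshold and 5 CPM or more in the higher group, and the genes most like Nos2 also needed 5 CPM in the highest group. The alternatives were RLE, upper-quartile and total-count scaling, no count filter, a minimum of 10 counts per library, unrounded counts, DESeq2 1.42.0, a block for replicate number, a fit to the compared libraries alone, a further threshold of 1 log2 unit, and leaving out each library. Replicate numbers were not treated as pairs in the main fit. The titles do not say whether libraries of the same number shared a mouse or a day, and weak correlations between them cannot settle this. Proteins and raw reads were not analysed here, and some genes of the pathway are not reported here.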

Additional observations from a re-analysis of the deposited data

Results flagged for a closer look

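Each result here was picked out because the response to LPS differed between WT and KO-labelled libraries by edgeR's test of the interaction. Among the members, the response under the KO label was more positive for Slc7a2 (0.63 log2 units, adjusted p = 0.00127), Ass1 (0.71, adjusted p = 8.85e-05) and Gch1 (0.65, adjusted p = 0.000416). In all 3 genes each KO-labelled LPS library was above each WT LPS library. Over all genes, 45.6% were free of overlap in that comparison, in either direction. The 3 were picked by a test that used these same libraries.

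Among the named pathway genes, the response was more positive under the KO label for Smox (0.93, adjusted p = 7.44e-05), Txnrd1 (0.72, adjusted p = 7.88e-05) and Por (0.47, adjusted p = 0.00506), the reductase gene of the cytochrome P450 system. It was more negative for Paox (-1.01, adjusted p = 0.000231), Cbr1 (-0.90, adjusted p = 0.00367) and the arginine methyltransferase gene Prmt9 (-0.53, adjusted p = 0.00449). Txnrd1 averaged 177 and 259 CPM in WT and 204 and 493 CPM in KO-labelled libraries, with PBS and LPS. Cbr1 averaged 7.97 and 2.74 CPM in WT and 8.35 and 1.54 CPM in KO-labelled libraries. No formal search for outlying samples was run, since each group had 3 libraries.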

How the results depend on the processing

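Among the results recomputed, those that passed the threshold kept their direction except Sat1 and Sms for LPS under the KO label, at -0.16 and -0.092 with library totals alone. Of the comparisons of single members with an alternative, 716 kept their side of the threshold, 4 newly passed and 3 no longer passed, and for the pathway genes recomputed 989 kept it, 2 changed direction and 30 no longer passed, 18 of these under PBS between the labels. A further threshold of 1 log2 unit left 4 members for LPS under each label, and 0 for KO against WT with PBS or LPS and for the interaction. It left 17, 21, 0, 1 and 1 pathway genes and 4390, 5027, 399, 570 and 325 of all genes over the 5 comparisons in the order LPS in WT, LPS in KO, KO against WT with PBS, the same with LPS, and interaction. Library totals alone gave 16 pathway genes in the interaction, and fitting only the libraries compared gave 4627 genes for KO against WT with PBS. Leaving out 1 library moved that comparison most, from 1992 genes and 6 pathway genes (both without KO PBS replicate 1) to 3896 and 23 (both without WT LPS replicate 1). Pathway genes there were 9 and 8 without WT PBS replicates 1 and 3, and 10 and 12 without KO PBS replicates 2 and 3.

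The share of calls that were higher among all genes was 47.6% for LPS in WT and 48.6% under the KO label, but 21.2% and 20.8% with library totals alone and 32.5% and 33.8% with upper quartiles. For KO against WT it was 48.6% with PBS and 61.6% by totals, and 53.4% with LPS and 37.9% by totals (41.6% by upper quartiles). For the interaction it was 54.2%, and 24.4% by totals and 43.1% by upper quartiles. For the interaction among the pathway genes totals gave 3 higher and 13 lower.

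Libraries of the same number did not deviate together (1 of 18 correlations above 0.1, from -0.08 to 0.13, with 4 of 12 libraries closest to their own number). With the replicate number as a block, 6, 6, 1, 4 and 3 members, 43, 44, 18, 22 and 11 pathway genes and 9267, 9631, 2969, 5030 and 2132 of all genes passed in the 5 comparisons. Depth was lowest for Ddah2, on 9 to 44 counts per library, and for Nos2 with PBS, on 13 to 92.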
